A study of Homo sapiens with 2 samples.

Results

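Galectins are small lectins that bind beta-galactosides, above all the lactosamine units of cell surface and secreted glycoproteins. They are made in the cytosol without a signal peptide and leave the cell by a non-classical route. Galectin-1, galectin-2 and galectin-7 are single-domain lectins that can pair, galectin-3 joins 1 lectin domain to a long tail through which it self-associates, and galectin-4, galectin-8 and galectin-9 carry tandem lectin domains on one chain. At the cell surface they cross-link glycoproteins into lattices, and inside the cell galectin-3, galectin-8 and galectin-9 bind glycans exposed on damaged endosomes and lysosomes, the compartment in which T-DM1 is degraded. In the gut, galectin-4 is a lectin of differentiated enterocytes that takes part in apical sorting, and galectin-2 is found mainly in gastrointestinal epithelium.

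The genes described here are LGALS1, LGALS2, LGALS3, LGALS4, LGALS7, LGALS8 and LGALS9, taken by symbol from a deposited table of 29972 human genes, and all 7 were found. RNA came from subcutaneous tumours that NCI-N87, a human gastric carcinoma line with amplified ERBB2, formed in nude mice, hosts that lack mature T cells. 1 tumour had no treatment and 1 was refractory to T-DM1, an antibody to HER2 that carries the microtubule poison DM1, dosed every 3 weeks over 18 weeks. Each group is 1 library, so no difference below has a replicate check and no test across samples was possible. The intervals given therefore cover counting error only. They take each read as a separate molecule, though no molecular identifiers tell copies of the same molecule apart, and can be too narrow. Levels are CPM, each count as its share of the library total after TMM scaling (trimmed mean of M values). A gene is described if 1 library or both reach 1 CPM, and it is called higher or lower at a 2-fold difference in CPM + 1, refractory over untreated.

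The libraries held 75722117 and 59902704 expected counts. ERBB2, the target of T-DM1, stood at 7267 and 7975 CPM, and all 6 listed markers of the epithelial line were described with none called. Markers of fibroblasts and endothelium were low in this table of human genes. Of 6 fibroblast genes, COL1A2, COL3A1 and DCN had 0 reads in both libraries, and the 6 together summed to 2.97 and 2.11 CPM. The 6 endothelial genes summed to 4.89 and 0.354 CPM. The 7 macrophage and leukocyte genes, described below with LGALS3, were not as low and summed to 31.8 and 130 CPM.

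Of the 7 galectin genes, 3 were called higher in the refractory tumour, LGALS4, LGALS3 and LGALS2, and 0 lower. LGALS1, LGALS8 and LGALS9 lay between the thresholds, and LGALS7 had 0 reads in both libraries. Among all 14167 described genes 9.80% were called higher and 11.0% lower. LGALS2 and LGALS4 reached 1 CPM in the refractory library only, so they could pass the minimum in no other way than by differing, and the count of 3 is a description. The median log2 of the 6 described galectins was 0.58, beside 0.03 over all described genes, and is a description for the same reason: over the 4 that reached 1 CPM in both libraries it was -0.12, on the other side of no change.

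**Figure D1:**
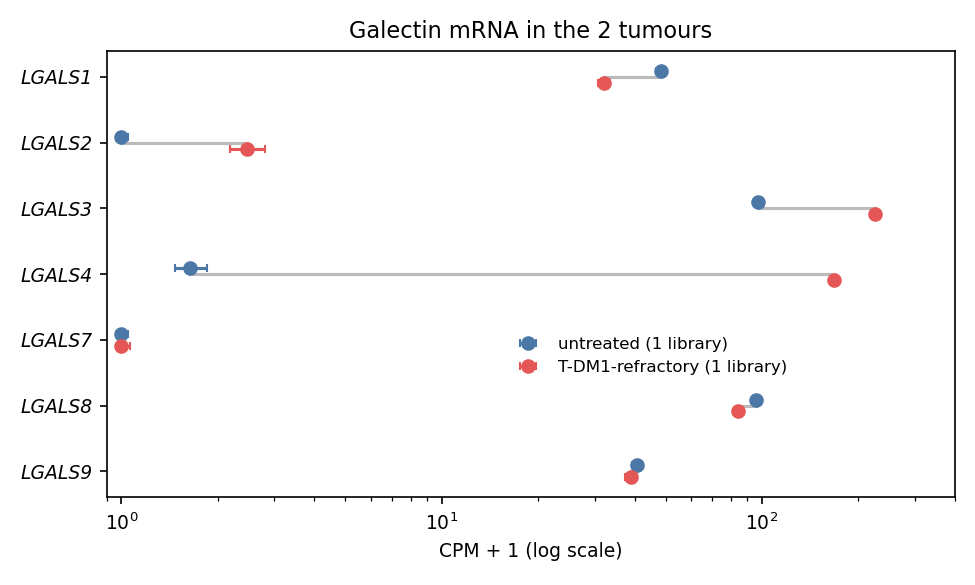
Level of each galectin gene in the untreated (blue) and the T-DM1-refractory tumour (red), 1 library each, as CPM + 1 on a log scale; bars are exact 95% Poisson intervals of the counts, and grey lines join the libraries. LGALS4 spans the widest gap, from 0.641 to 166 CPM, while LGALS8 and LGALS9 nearly coincide.

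The 3 called genes are shown with the 300 bases around their start, 250 before and 50 after, to let the promoters of genes that were higher together be compared. The sequences are those of RefSeq on GRCh38.p14, which held a window for 6 of the 7 members (LGALS1 was not among them), read 5′ to 3′ on the gene's strand. Capitals mark matches to any of 8 motifs on either strand, and matches to the NRF2 and AP-1 motifs can overlap: TATAAA (the TATA box), GATAAG (the motif of GATA factors), TTTATG (CDX), CAAAGTNCA (HNF4), TGACNNNGC (NRF2), ACGTG (hypoxia response core), GGGCGG (GC box) and TGA followed by any base and TCA (AP-1). The LGALS4 window lies at chr19:38812896-38813195 (minus strand), that of LGALS3 at chr14:55129002-55129301 (plus strand) and that of LGALS2 at chr22:37580038-37580337 (minus strand).
LGALS4: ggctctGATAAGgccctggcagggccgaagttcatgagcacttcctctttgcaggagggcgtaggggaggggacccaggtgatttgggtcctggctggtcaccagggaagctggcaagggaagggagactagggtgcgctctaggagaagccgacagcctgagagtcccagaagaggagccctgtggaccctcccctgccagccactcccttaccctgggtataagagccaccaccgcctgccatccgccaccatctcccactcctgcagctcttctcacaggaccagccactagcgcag
LGALS3: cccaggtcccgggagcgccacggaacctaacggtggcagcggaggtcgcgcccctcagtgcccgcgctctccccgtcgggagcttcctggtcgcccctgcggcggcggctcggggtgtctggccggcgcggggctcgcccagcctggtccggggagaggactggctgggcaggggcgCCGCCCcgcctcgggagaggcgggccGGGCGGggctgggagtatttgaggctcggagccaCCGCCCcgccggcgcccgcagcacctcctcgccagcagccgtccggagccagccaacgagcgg
LGALS2: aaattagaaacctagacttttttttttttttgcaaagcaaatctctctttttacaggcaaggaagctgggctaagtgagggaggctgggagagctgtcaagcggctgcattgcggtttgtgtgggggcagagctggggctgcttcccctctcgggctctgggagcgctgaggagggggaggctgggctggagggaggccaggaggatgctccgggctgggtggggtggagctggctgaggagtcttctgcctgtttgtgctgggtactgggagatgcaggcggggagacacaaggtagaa

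The 3 windows shared no motif. LGALS4 held 1 match, GATAAG at bases -244 to -239 from the start, a motif present in 6.36% of 35116 promoter windows of the same length. It was not particular to LGALS4 among the members. A window of LGALS8, which was not called, held it on the other strand at bases -245 to -240. The GC box was likewise present in windows of LGALS7 and LGALS8. LGALS3 held the GC box 3 times, a motif of 45% of windows, in a sequence of 78.3% G and C against 62.7% for LGALS4 and 57.7% for LGALS2. LGALS2 held none of the 8. These are matches of letters and say nothing of which factor binds.

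LGALS4 (chromosome 19, coding bases 38801764 to 38812886 on GRCh38, 10 exons) encodes the tandem-repeat galectin of intestinal epithelium. It had 49 reads in the untreated tumour and 9867 in the refractory one, that is 0.641 and 166 CPM. The untreated tumour was therefore close to the limit of description, while in the refractory tumour LGALS4 was a leading galectin. The ratio was 260 (95% interval 196 to 351), and its log2 of 6.67 on the CPM + 1 scale was the 8th largest of all described genes. In the authors' deposited table its log2 fold change was 8.02 with p = 3.80e-08. The test behind the deposited p-values is not given. With 1 library per group they cannot rest on a spread measured between tumours, and they do not compare the conditions. Because a tumour is a mixture, more cells that express a gene and more RNA per cell cannot be told apart here, for LGALS4 or for any gene below.

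The genes whose pair of levels was most like that of LGALS4, by distance in log2(CPM + 1) over the 2 libraries, were CDHR2, a protocadherin of the brush border, HPGD, which inactivates prostaglandins, HHLA2, a B7 family ligand, CLDN2, a pore-forming claudin, and AMIGO2, an adhesion protein. CDHR2 was nearest at a distance of 0.37 (0.706 and 214 CPM). HPGD, with 0.575 and 244 CPM, lay at 0.55 and HHLA2, with 1.41 and 188 CPM, at 0.58. CLDN2 (1.39 and 243 CPM) and AMIGO2 (2.29 and 163 CPM) were farther. With 2 libraries this likeness is only a likeness of 2 levels.

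Listed markers of enterocytes moved with LGALS4 in part. Of 11, 7 were described, with 4 higher and 1 lower (CDHR2 is one of the 4), beside 9.80% higher and 11.0% lower among all described genes. The summed level of the 11 was 156 CPM without treatment and 1152 CPM in the refractory tumour. The lower one was KRT20, a keratin gene of differentiated gastrointestinal epithelium, which stood at 126 and 0.371 CPM, 341-fold lower (95% interval 225 to 544), and held most of the untreated sum. CDH17, a cadherin gene, stood at 3.44 and 629 CPM and held most of the refractory sum. VIL1, which encodes the microvillus protein villin, stood at 14.6 and 287 CPM. FABP1 and SI, which mark mature intestinal cells, had 0 reads in both libraries. Of the intestinal transcription factor genes, CDX1 also had 0 reads in both, and CDX2 stood at 10.2 and 5.66 CPM. The part of the listed markers in the LGALS4 difference was not tested.

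LGALS2 (chromosome 22, coding bases 37570263 to 37579905) encodes galectin-2, a close relative of galectin-1. It had 0 reads in the untreated tumour, a count that allows up to 0.0392 CPM at a floor of 3 reads, and 87 reads in the refractory tumour, or 1.47 CPM. The refractory level was thus at least 37.4-fold higher at that floor, and the exact 95% interval reaches down to 29.8-fold. Its level stayed low all the same, at 6.11 FPKM (fragments per kilobase of transcript, scaled to library depth, as the authors deposited them) beside 167 for LGALS4. Its log2 of 1.30 rests on few reads, and with 5 CPM added in place of 1 the value is 0.37 and the gene is no longer called. The authors' deposited table gives it p = 1.96e-05.

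LGALS3 (chromosome 14, coding bases 55137374 to 55145394) encodes galectin-3, the galectin with a self-associating tail, common in epithelia and in macrophages, where it is known as Mac-2. Its counts were 7336 and 13342, which is 96.0 CPM without treatment and 225 CPM in the refractory tumour. The refractory level was 2.34-fold higher (95% interval 2.28 to 2.41), a log2 of 1.22 that 6.90% of all described genes reach or exceed. With a threshold of 4-fold it is not called, and the authors' deposited table gives p = 0.261. That p-value does not rest on counting error alone, since the counting interval is far from no change. Galectin-3 was among the leading galectins of both tumours, whereas LGALS4 and LGALS2 were absent or nearly absent from the untreated one.

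Listed markers of macrophages and leukocytes moved with LGALS3 only in part. Of 7 listed genes 4 were described, with 3 higher and 0 lower, beside 9.80% higher and 11.0% lower among all described genes. The 7 together summed to 31.8 and 130 CPM. Most of those reads were of LYZ, the lysozyme gene, at 27.2 and 95.9 CPM, a gene also made by gastric epithelium, and CD68, a lysosomal membrane protein gene, at 3.62 and 29.2 CPM. The third called gene was ITGAM, the myeloid integrin CD11b, with 32 and 197 reads (0.419 and 3.32 CPM), 7.93-fold higher (95% interval 5.44 to 11.9). CD14, a receptor of monocytes, had 34 and 85 reads and was not called. PTPRC, the pan-leukocyte CD45, had 5 and 17 reads, CSF1R, the macrophage growth factor receptor, 0 and 3, and CD163, a scavenger receptor of macrophages, 4 and 1. Leukocytes of the host are mouse cells, while these reads are listed under human genes. Which cells gave the reads, and their part in the LGALS3 difference, was not tested.

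LGALS1 (chromosome 22, coding bases 37675703 to 37679749) encodes galectin-1, a dimeric galectin made by many mesenchymal and tumour cells. It had 3618 reads in the untreated and 1848 in the refractory tumour, at 47.3 and 31.1 CPM. The refractory level was 1.52-fold lower (95% interval 1.44 to 1.61), short of the 2-fold threshold but past 1.5-fold, and 18.8% of described genes had a log2 as low as its -0.59. Galectin-1 and galectin-2, single-domain relatives with coding sequences 56.8% identical over aligned bases, therefore stood on opposite sides of no change.

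LGALS8 and LGALS9, the tandem-repeat galectins of damaged endosomes, differed little. LGALS8 (chromosome 1, coding bases 236526071 to 236548161) stood at 94.996 and 83.418 CPM, 1.14-fold lower in the refractory tumour (95% interval 1.10 to 1.18). LGALS9 (chromosome 17, coding bases 27631266 to 27648982) stood at 39.6 and 38.0 CPM, with a ratio of 0.958 whose 95% interval, 0.907 to 1.01, includes no change. Among the 3 tandem-repeat genes the log2 values were thus 6.67, -0.19 and -0.06, so LGALS4 did not move with the structural class it belongs to.

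LGALS7, the galectin of stratified squamous epithelium, had 0 reads in both libraries. It has a near-identical copy, LGALS7B, whose gene lies 15.7 kb away on chromosome 19, with LGALS4 a further 9.9 kb on. The coding sequences of LGALS7 and LGALS7B, each 411 bases long, differ in GENCODE 29 by 1 base, G144C counted from the first base of the start codon. That base is shown in capitals in coding bases 124 to 164, to make plain how little a read within the coding sequence has to tell the copies apart.
LGALS7: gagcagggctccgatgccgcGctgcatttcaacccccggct
LGALS7B: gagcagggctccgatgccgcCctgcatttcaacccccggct

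All reads of the pair were listed under LGALS7B, 2 in the untreated and 22 in the refractory tumour, or 0.0262 and 0.371 CPM. Of the 50-base words in LGALS7B coding transcripts, 84.6% also occur in LGALS7, while 49.2% of the LGALS7 words occur in LGALS7B. Reads that fall in shared words can be of either copy. Summed, the pair stays under 1 CPM in both tumours. Listed squamous markers went the other way from these few reads. Of 9 described, 7 were lower and 1 higher, beside 11.0% lower and 9.80% higher among all described genes. The basal keratin gene KRT5 stood at 149 and 0.421 CPM. The LGALS9 copies LGALS9B and LGALS9C had 37.59 and 3.41 expected counts in the untreated tumour and 0 in the refractory one. Their coding sequences are 99.5% identical to each other and 96.4% and 95.9% identical to that of LGALS9. Summing all 3 left LGALS9 at a log2 of -0.08. LGALSL, a galectin-like protein that does not bind lactose, was the only other galectin-fold gene described of 9 in the table, at 53.7 and 37.6 CPM, 1.43-fold lower (95% interval 1.36 to 1.504). LGALS13, LGALS14 and LGALS16, the placental galectins of chromosome 19, had 0 reads in both libraries.

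Per length, the order of the members differed between the tumours. In the untreated tumour LGALS1 led at 172 FPKM, followed by LGALS3 at 125, LGALS9 at 29.6, LGALS8 at 16.2 and LGALS4 at 0.648, with LGALS2 and LGALS7 listed at 0. In the refractory tumour LGALS3 led at 292 FPKM, followed by LGALS4 at 167, LGALS1 at 115, LGALS9 at 27.1, LGALS8 at 13.9 and LGALS2 at 6.11. The order at the top changed, while LGALS9 stayed ahead of LGALS8 in both. LGALS1 made up 50.1% of the summed galectin FPKM in the untreated and 18.6% in the refractory tumour, and LGALS4 0.189% and 26.8%. The sum itself was 343 and 621 FPKM, so the LGALS1 share fell more than its own level did.

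**Figure D2:**
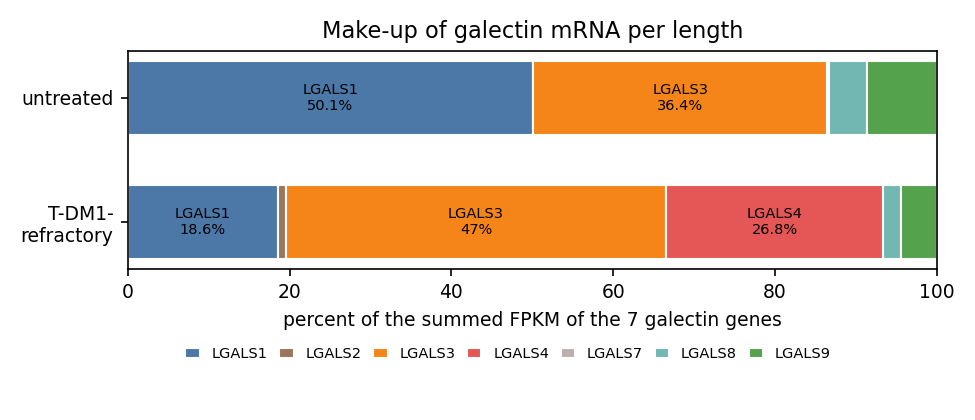
Share of each galectin gene in the summed FPKM of the 7 genes, in percent, for the untreated (upper bar) and the T-DM1-refractory tumour (lower bar), 1 library each. LGALS1 falls from 50.1% to 18.6%, LGALS3 goes from 36.4% to 47.0%, and LGALS4 appears at 26.8%.

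Position in the genome was not used to choose the genes, and each was set beside the 5 nearest described genes on either side in RefSeq gene order. No limit was set on the distance in bases, so a neighbour in this order can lie far from the member. LGALS4, at a log2 of 6.67, was above all 10 of its neighbours, whose median was 0.48 and highest value 2.22 (CAPN12, a calpain protease gene, 0.837 and 7.58 CPM). LGALS2, at 1.30, was above all 10 of its own, whose median was 0.34 and highest value 0.89. LGALS1, only 93.0 kb from LGALS2, was below all 10 of its neighbours, LGALS2 among them, whose median was 0.59 and lowest value -0.47. For LGALS3, 9 of 10 neighbours lay between the thresholds with a median of 0.11, and 1, PELI2, was above it. LGALS9 was flat beside neighbours with a median of 0.61, and the neighbours of LGALS8 scattered from -1.65 to 2.05. On the CPM + 1 scale LGALS4, LGALS2 and LGALS1 thus lay outside the range of the genes around them, and the other 3 inside it. With 5 CPM added, LGALS2 at 0.37 fell inside its range, whose top was 0.63, and LGALS3 at 1.19 lay above all 10 of its neighbours, while the places of the other 4 did not change.

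**Figure D3:**
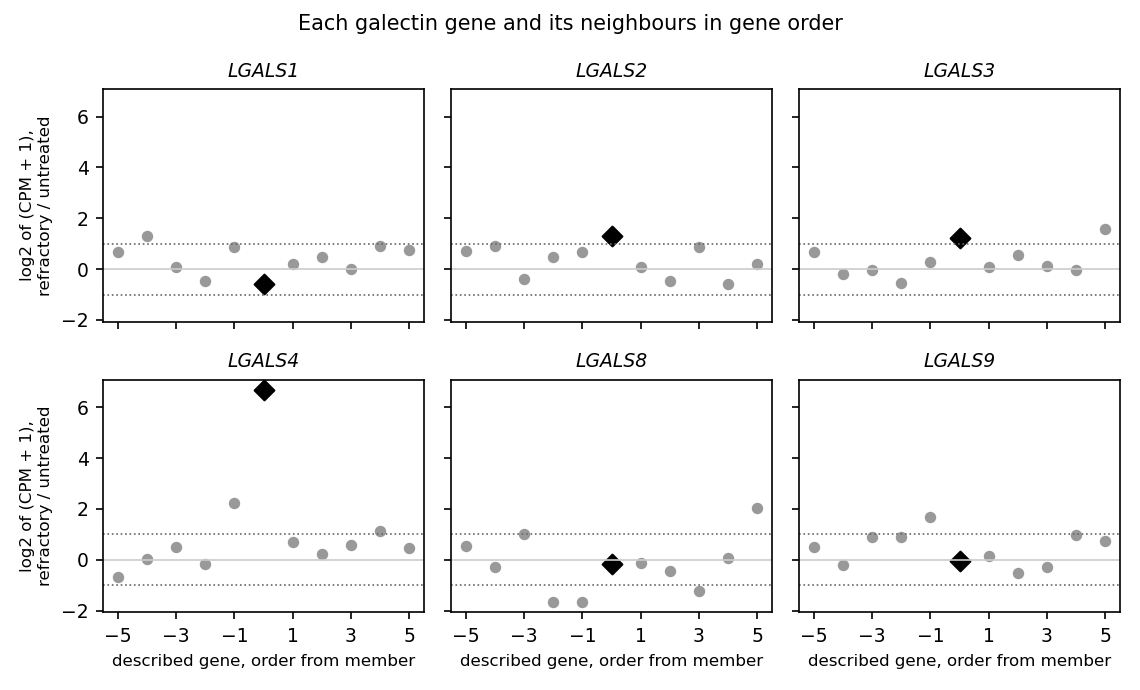
Log2 of CPM + 1, T-DM1-refractory over untreated, for each described galectin gene (black diamond) and its 5 nearest described genes on each side (grey points, by order along the chromosome); dotted lines mark 2-fold. The LGALS4 diamond at 6.67 stands above all of its neighbours and LGALS1 at -0.59 below all of its own.

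Galectins act on the sugars that glycosyltransferases build. Of 20 listed enzymes that branch glycans or extend them with lactosamine, 19 were described, 1 was higher and 4 lower, with a median log2 of 0.02. Among all described genes, 9.80% were higher and 11.0% lower. B4GALT1, the main galactosyltransferase of lactosamine synthesis, stood at 645 and 103 CPM and was 6.25-fold lower in the refractory tumour (95% interval 6.08 to 6.42). B3GNT3, which extends lactosamine on mucin-type glycans, stood at 111 and 38.8 CPM. The 4th was MGAT5, named after its values were seen, which adds the branch on N-glycans that galectin-3 favours, at 632 and 242 CPM, 2.61-fold lower. The core 2 branching enzymes of mucin-type glycans parted: GCNT1 stood at 14.8 and 0.607 CPM, 24.4-fold lower (95% interval 17.5 to 35.0), and GCNT3, the form of mucin-secreting epithelia, at 2.66 and 38.8 CPM, 14.6-fold higher (95% interval 12.7 to 17.0).

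Sialic acid and sulfate on galactose change which galectins can bind. Of 12 listed genes 10 were described, 2 higher and 4 lower, beside 9.80% higher and 11.0% lower among all described genes. The median log2 was -0.11, and it turned sign to 0.08 with no filter on low genes and to 0.21 on FPKM. GAL3ST1, which sulfates galactosylceramide into sulfatide, a lipid ligand of galectin-4, stood at 0.327 and 5.31 CPM, 16.2-fold higher (95% interval 10.8 to 25.5). UGT8, which makes its substrate galactosylceramide, stood at 188 and 224 CPM and was not called. The sialyltransferase genes ST3GAL6 (6.74 and 0.641 CPM) and ST3GAL4 (46.6 and 14.8 CPM), which act on lactosamine ends, were lower, as was the sulfotransferase gene GAL3ST4 (2.22 and 0.0674 CPM). ST3GAL1, which caps mucin-type core glycans, was higher at 13.7 and 32.9 CPM. ST6GAL1, whose product blocks galectin-1, was not called.

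Glycoproteins known to carry galectin ligands were mixed as well. Of 25 listed genes 23 were described, 3 higher and 4 lower, beside 9.80% higher and 11.0% lower among all described genes. The median log2 of the list was 0.42, and 0.23 with a minimum of 10 CPM. ANPEP, the brush border aminopeptidase N, stood at 0.445 and 9.57 CPM, and MUC1, a membrane mucin that binds galectin-3, at 36.0 and 135 CPM, 3.75-fold higher (95% interval 3.59 to 3.92). CEACAM5, a gut adhesion glycoprotein, stood at 89.7 and 189 CPM. FN1, the matrix protein fibronectin, was 16.1-fold lower, ALCAM, an adhesion molecule, 4.47-fold lower (309 and 69.2 CPM) and EGFR 3.13-fold lower. LGALS3BP, the secreted binding partner of galectin-3, did not follow LGALS3 and stood at 414 and 404 CPM, a ratio of 0.977 (95% interval 0.960 to 0.993).

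None of the genes by which galectins are linked to the response to damaged lysosomes was called. Of 24 listed genes, 23 were described, and 0 were higher and 0 lower, beside 9.80% higher and 11.0% lower among all described genes. The median log2 of the list was 0.18. SQSTM1, the autophagy receptor p62 and the one with the most reads over both libraries, stood at 239 and 412 CPM, and TRIM16, a ubiquitin ligase that works with galectin-3, at 106 and 62.8 CPM. LAMP1 and LAMP2, the lysosomal membrane glycoproteins that galectins bind, stood at 159 and 231 CPM and at 255 and 341 CPM, also without a call. The differences among galectins were thus not shared by these genes at the 2-fold threshold.

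**Figure D4:**
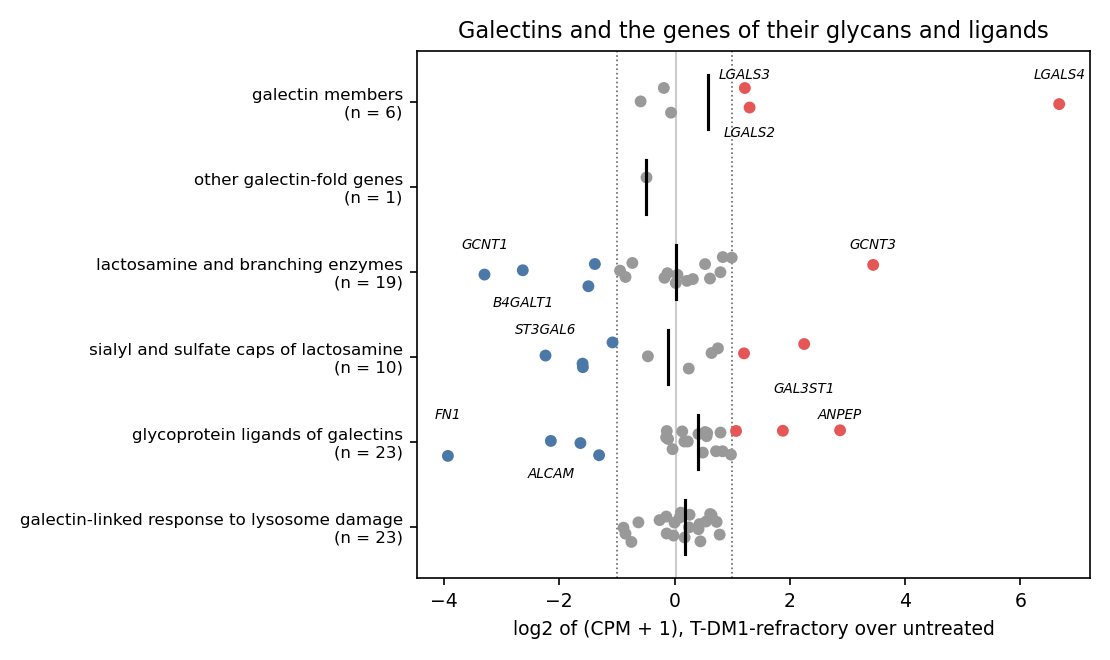
Log2 of CPM + 1, T-DM1-refractory over untreated, for the described genes of 6 gene lists (points; red called higher, blue called lower, grey between; black bars are list medians, dotted lines 2-fold, the grey line the median of all described genes). LGALS4 lies far to the right at 6.67, the branching enzymes spread from GCNT1 to GCNT3, and no gene of the lysosome damage list passes 2-fold.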

How the data were processed

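The mRNA of 1 untreated and 1 T-DM1-refractory tumour was sequenced, and the groups come from the treatment and title labels. The submitters' processing notes name RSEM 1.2.28, STAR 2.7.0e, edgeR 3.26.8 and bcl2fastq 2.20, and the human and mouse builds GRCh38 and GRCm38. What each tool did, the annotation, the strandedness and how the mouse build was used are not given in these sources. The authors deposited expected counts (per-gene estimates that need not be whole numbers) with FPKM, a log2 fold change and a p-value per gene in the same table. The deposited log2 fold changes run refractory over untreated: among the 13007 genes above 50 reads in each library, none lay farther than 0.00387 from the value recomputed from scaled counts.

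Expected counts were rounded, scaled with TMM factors (edgeR 4.0.16 in R 4.3.3; 1.0097 untreated, 0.9904 refractory) and expressed as CPM. Log2 values are of CPM + 1, which understates the change of low genes. The 95% intervals are exact, Poisson for a level and Clopper-Pearson for a ratio, and a fold against a count of 0 is a bound at a floor of 3 counts, while log2 values and calls keep the 0. The calculation was tested on simulated data with counting error only, in which abundant genes were changed by known folds. That test does not cover the spread between tumours or the calls of genes with few reads. Coding positions of the members are those deposited by the authors. File start coordinates count from 0 and are printed counted from 1. For LGALS3 the deposited coding end, 55145394, differs from that of the GENCODE 29 transcript used here, 55145271. Coding sequences are those of GENCODE 29, aligned globally with Biopython 1.88, and neighbours come from the RefSeq gene table of GRCh38.p14.

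Named genes are the 7 members, other described galectin-fold genes, ERBB2, the 5 genes most like the leading galectin, and markers. From each list come up to 3 called genes per direction, or its most abundant gene where none was called. Further genes were named after their values were seen, as copies, neighbours or other members of a list, called or not. The 12 lists, the galectins among them (144 entries, 143 of them in the table), were chosen with earlier results of these data known. Alternatives were 3 other scalings, pseudocounts of 0.1 and 5 CPM, no filter and a filter of 10 CPM, FPKM, and thresholds of 1.5-fold and 4-fold. No protein sequences were used here.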

Additional observations from a re-analysis of the deposited data

How the results depend on the processing

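No paired analysis was possible because each group is 1 library, and for the same reason no library could be left out. LGALS4 and LGALS3 were called higher under every alternative except that LGALS3 was not at 4-fold, where 1 member was called. LGALS2 was not called with 5 CPM added (log2 0.37), at 4-fold or under a filter of 10 CPM, which it does not reach, and its log2 was 3.97 with 0.1 CPM added and 2.83 on FPKM. The log2 of LGALS4 ranged from 4.92 (5 CPM added) to 7.81 (0.1 CPM added). Lower calls among the members were 0 except at 1.5-fold, where 1, LGALS1, passed. LGALS1, LGALS3, LGALS8 and LGALS9 kept their direction under each scaling, pseudocount and filter and on FPKM, at -0.62 to -0.53, 1.19 to 1.23, -0.21 to -0.18 and -0.12 to -0.05. Summing near-identical copies, an alternative chosen after seeing the data, gave LGALS9 -0.08 and no value for LGALS7, which stays under 1 CPM. Over all genes, 1388 higher and 1555 lower calls became 821 and 840 with 5 CPM added, 2755 and 2677 at 1.5-fold and 360 and 504 at 4-fold, and lower calls became 921 with a filter of 10 CPM. The places of the members among their neighbours at other pseudocounts, and the median over members at 1 CPM in both libraries, were also added after seeing the data. Depth limits LGALS2, LGALS7 and the untreated level of LGALS4, which rests on 49 reads, and the interval of LGALS9 includes no change.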

Other observations

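Another pair of rows in the table carries galectin names. LGALS8-AS1, an antisense RNA that starts beside LGALS8, had 1.01 and 10 expected counts, against 7263 and 4949 for LGALS8. The strandedness of the counting is not given, so reads of these genes where they overlap cannot be told apart. LGALS17A, a transcribed pseudogene of the chromosome 19 galectin cluster, had 11 reads in the untreated and 0 in the refractory tumour. LGALS12, the galectin of fat cells, had 0 and 8 reads, and CLC, the galectin of eosinophil crystals, 5 and 0. Each stayed under 1 CPM in both libraries.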
